A study of Mus musculus with 51 samples.

Results

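Hsp90 is an ATP-driven chaperone that works as a dimer and holds protein kinases, steroid hormone receptors and other client proteins in a form that can be activated. Hsp90aa1 and Hsp90ab1 encode the cytosolic forms, of which Hsp90aa1 is the more stress-inducible and Hsp90ab1 the more constitutive, and Hsp90b1 encodes Grp94, the form of the endoplasmic reticulum. Co-chaperones set the pace of the cycle: Stip1 passes clients from Hsp70 to Hsp90, Ahsa1 stimulates the ATPase, Fkbp4 is a peptidyl-prolyl isomerase of steroid receptor complexes, and Cacybp is an adaptor that binds calcyclin and the ubiquitin ligase Siah1. Hsp90 also holds the heat-shock transcription factor Hsf1 in check, and Hsf1 in turn drives transcription of several of these genes. The 7 genes were taken by name from the 6248 genes measured, with earlier results of these data known. The share of them called below is therefore not that of a set chosen blind.

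Expression had been measured with GeoMx, which releases barcoded probes by light from areas picked on a section and reads the barcodes by sequencing. The sections, 6 µm thick and fresh-frozen, were of the cochlea of male CBA/CaJ mice at 16 weeks of age, with 5 animals per treatment. Exposed mice had heard broadband noise at 100 dB SPL for 2 h, and the other mice had a mock exposure. The labels gave the time of collection differently: the titles added 4 h to the exposure, and the design text placed collection at its end. No group had received TRC-051384, the compound in the study's title, as far as the labels say.

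The 4 groups were 16 neuron and 14 supporting-cell regions after mock exposure and 12 neuron and 8 supporting-cell regions after noise. These are 50 of 51 regions: noise neuron replicate 6 held the same value for every gene and was left out. Regions outnumber the 5 mice in every group and carry no animal in the labels, so some come from the same mouse, and the p-values below, which treat regions as independent, are too small. Noise and mock areas carried different name prefixes, so an effect of slide or scan cannot be told apart from that of treatment. Recovered reads per region lay between 9607 and 88156, with medians of 26710 for noise and 23494 for mock neurons, and of 16882 for noise and 12885 for mock supporting cells. The region labels were set against marker genes. The summed signal of 10 neuron markers had a median of 229 in mock neuron, 183 in noise neuron, 62.3 in mock supporting-cell and 80.6 in noise supporting-cell regions. That of 9 glia markers was 41.7, 25.7, 125 and 65.1 in the same order. Of 10 markers of organ of Corti supporting cells Sox2 and Prox1 were analysed here, and their summed signal had group medians between 3.12 and 4.16. Of 3 bone and connective tissue markers, Coch averaged 9.96 and Sparc 3.46 in mock supporting-cell regions, against 1.87 and 1.56 in mock neuron regions. Spp1 went the other way, at 9.68 against 30.0. The regions labelled supporting cells were thus marked by glia genes and also by Coch and Sparc. No marker read here separated them as organ of Corti supporting cells. In such regions, fewer cells of a type and less RNA per cell cannot be told apart.

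On GRCm38.p6, the build named in the submitters' processing notes as GRCm38, RefSeq places Hsp90aa1 at chr12:110691036-110696395, Hsp90ab1 at chr17:45567778-45573261 and Hsp90b1 at chr10:86690841-86705444. Ahsa1 lies at chr12:87266415-87273998, Stip1 at chr19:7020696-7040026, Fkbp4 at chr6:128430103-128438656 and Cacybp at chr1:160202367-160212892. All 7 are protein-coding. RefSeq promoter sequence of this build was matched for 5 of the 7 (not for Hsp90aa1 and Hsp90ab1). The 250 bases before the start of Hsp90b1 and Fkbp4 are shown because Hsp90b1 had the largest noise difference among the 7 genes and Fkbp4 was the co-chaperone with the largest difference between region types. Both are 5′ to 3′ on the minus strand, at chr10:86705445-86705694 and chr6:128438657-128438906. Capitals mark the matches described after them.

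Hsp90b1: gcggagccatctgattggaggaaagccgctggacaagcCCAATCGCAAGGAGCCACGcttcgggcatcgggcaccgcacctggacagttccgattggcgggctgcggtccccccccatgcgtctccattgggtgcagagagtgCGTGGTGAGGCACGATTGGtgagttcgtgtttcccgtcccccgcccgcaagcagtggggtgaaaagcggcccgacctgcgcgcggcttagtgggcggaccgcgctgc

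Fkbp4: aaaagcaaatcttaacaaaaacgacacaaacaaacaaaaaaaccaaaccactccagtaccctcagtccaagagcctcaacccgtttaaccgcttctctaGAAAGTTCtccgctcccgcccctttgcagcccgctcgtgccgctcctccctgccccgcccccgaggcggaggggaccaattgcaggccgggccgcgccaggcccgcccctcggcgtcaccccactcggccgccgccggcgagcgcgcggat

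The capitals in Hsp90b1 are 2 matches, 1 on each strand, to the endoplasmic reticulum stress element (CCAAT, then 9 bases of any kind, then CCACG), which begin 212 and 107 bases before the start. Of 32851 promoters of this length, 37 (0.113%) held this motif. The capitals in Fkbp4 are 1 match to GAANNTTC, a pair of heat-shock half-sites, 151 bases before the start, which 2199 promoters (6.69%) held. The opposite arrangement, TTCNNGAA, stood in 7.17% of promoters and in none of the 5 windows matched. Both motifs read the same on either strand. CCAAT, which is also part of the first motif, was found on either strand 5 times in Hsp90b1, 4 times in Stip1 and 1 time in Fkbp4, and in 33.8% of all promoters. A match is a string of letters and not a site shown to be bound.

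Signal here is the authors' scaled read count, set so that every region has an upper quartile of 3.12. Each gene had at least 1 read in every region, a floor in the deposited values. In signal 1 read was 0.312 to 1.56 in mock and 0.208 to 1.56 in noise neuron regions. It was 0.624 to 1.56 in supporting-cell regions of either treatment. The floor and the step between values thus change with depth, and the means of genes near the floor depend on it. The negative probe, which matches no mouse transcript by its purpose, averaged 1.09 (SD 0.314) and 1.12 (SD 0.235) in neurons after mock and noise, and 1.54 (SD 0.256) and 1.42 (SD 0.202) in supporting cells. Levels of different genes are not compared, because each gene has its own probes.

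Hsp90aa1 was above the negative probe in every region. In mock neurons its signal was 10.9 at the lowest, 18.5 at the median and 30.1 at the highest (mean 18.7 ± 4.50, n = 16), from a median of 25 reads. In noise neurons the lowest, median and highest were 6.24, 15.4 and 20.3 (mean 14.3 ± 4.42, n = 12). In mock supporting cells they were 3.12, 8.58 and 14.6 (mean 7.86 ± 4.01, n = 14), from a median of 7 reads, and in noise supporting cells 2.08, 6.55 and 12.5 (mean 6.74 ± 3.25, n = 8). No region was at 1 read. From high to low the groups ran mock neurons, noise neurons, mock then noise supporting cells. The highest and the next differed by less than their SDs, as did the lowest 2, while the neuron and supporting-cell groups were separated by more than theirs.

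Hsp90ab1 followed the same order of means. Its signal in mock neurons was 4.68, 11.4 and 17.2 at the lowest, median and highest region (mean 11.2 ± 2.85), and in noise neurons 1.56, 7.93 and 17.7 (mean 8.42 ± 4.24). In mock supporting cells it was 3.12, 6.24 and 14.6 (mean 6.36 ± 2.78) and in noise supporting cells 1.04, 5.15 and 7.02 (mean 4.50 ± 2.18). The ranges of all 4 groups overlapped, and each group was within 1 SD of the next in the order. Median reads were 15, 11, 4.5 and 6, and 2 noise regions, 1 of each type, were at the floor.

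Hsp90b1 had its lowest mean in noise supporting cells. There its signal was 0.780 at the lowest, 1.56 at the median and 6.24 at the highest (mean 2.44 ± 1.93, n = 8), 4 of 8 regions were at 1 read, and 4 of 8 were above the negative probe. Mock supporting cells were at 1.56, 4.42 and 10.9 (mean 4.89 ± 2.79). Mock neurons were at 3.12, 4.94 and 11.4 (mean 5.71 ± 2.60) and noise neurons at 0.780, 4.34 and 9.36 (mean 4.60 ± 2.53). These 3 groups lay within 1 SD of each other.

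The co-chaperones were close to the limit of what these regions can show. Ahsa1, the ATPase activator, averaged 3.66 ± 1.33 and 2.87 ± 1.59 in neurons after mock and noise, and 2.03 ± 0.822 and 2.51 ± 1.60 in supporting cells. It was at the floor in 7 of 14 and 4 of 8 supporting-cell regions. Fkbp4, the immunophilin, had means of 4.08 ± 2.39, 2.68 ± 1.61, 1.92 ± 0.768 and 1.44 ± 0.611 in the same order, with 8 of 14 and 5 of 8 supporting-cell regions at the floor. Stip1, the adaptor between Hsp70 and Hsp90, had means between 1.52 and 2.25, and Cacybp between 1.62 and 2.31, in all 4 groups. In mock supporting cells 9 and 11 of the 14 regions were at the floor for Stip1 and Cacybp, so a difference between groups was hardly detectable for either at this depth.

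**Figure D1:**
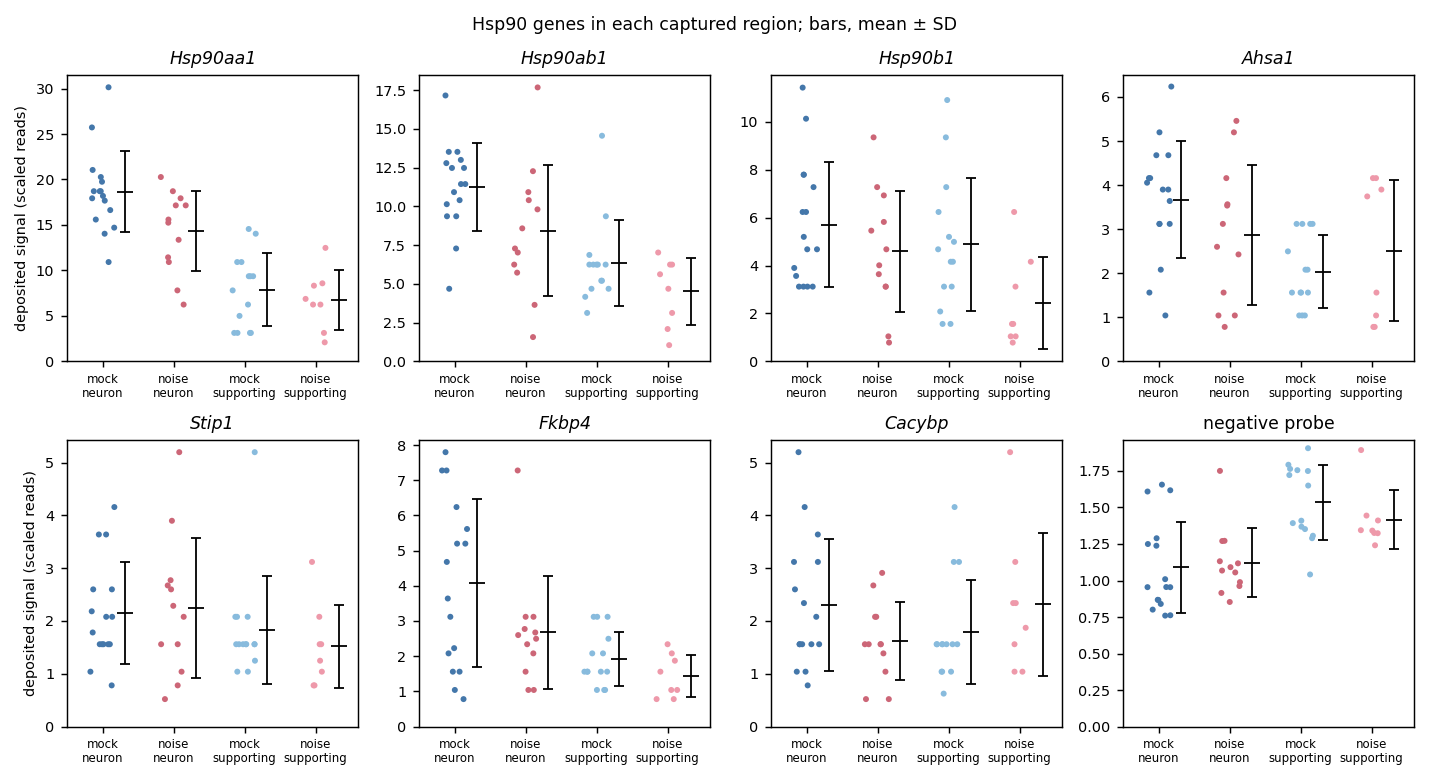
Deposited signal (scaled reads, linear axes from 0) of the 7 genes and of the negative probe in each of 50 regions, by group; each point is 1 region and bars give mean ± SD. Hsp90aa1 lies between 10.9 and 30.1 in mock neurons and between 3.12 and 14.6 in mock supporting cells, and Hsp90b1 has its lowest group mean, 2.44, in noise supporting cells.

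The comparison of region types after mock exposure came first, since it involves no noise. All 7 genes were higher in neurons than in supporting cells by point estimate, and 4 of 7 passed the test, against 20.0% of the 4686 genes tested (13.8% called higher in neurons). These were Hsp90aa1, Hsp90ab1, Fkbp4 and Ahsa1. The test was limma on log2(signal + 1) with captured area as a random block, adjusted by Benjamini-Hochberg over all genes tested, and a call is an adjusted p below 0.05. On that scale, which understates changes of low genes, the median difference of the 7 genes was 0.60 and that of all genes was -0.05. Genes named from A to K, a stretch that the files list thinly and that holds 6 of the 7, had a median of 0.30.

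Hsp90aa1 differed most, by 1.27 (SE 0.19, limma adjusted p 1.26e-09). Of 16 mock neuron regions 14 lay above the highest mock supporting-cell region, and 10 of 14 supporting-cell regions lay below the lowest neuron region. A permutation test of this single gene, two-sided and using its own spread, gave an unadjusted p of 2e-05, the smallest that 100000 resamples can give. Where a neuron and a supporting-cell region came from the same area, Hsp90aa1 was higher in the neuron region in 14 of 14 areas. Hsp90ab1 was higher in neurons by 0.76 (SE 0.20, limma adjusted p 0.00153) and in 13 of 14 areas. Fkbp4 was higher by 0.67 (SE 0.19, adjusted p 0.00351) and in 11 of 14 areas, and Ahsa1 by 0.60 (SE 0.19, adjusted p 0.0116) and in 11 of 14 areas. Since regions are not animals, these p-values are too small.

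Hsp90b1 did not pass, with a difference of 0.25 (SE 0.20, limma adjusted p 0.403, 95% interval -0.14 to 0.64), and was higher in the neuron region in 8 of 14 areas. Cacybp differed by 0.23 (adjusted p 0.390) and Stip1 by 0.15 (adjusted p 0.582). Stip1 was higher in the neuron region in 6 areas, lower in 4 and equal in 4.

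Depth and background moved with region type. Mock neuron regions had more reads, and the mean log2 signal of the olfactory receptor genes, which the cochlea is not known to use, was 1.41 in mock neurons and 1.65 in mock supporting cells. With log2 total reads as a covariate only Hsp90aa1 kept its call; Hsp90ab1 was at 0.44 (adjusted p 0.200), Ahsa1 at 0.53 (0.0943) and Fkbp4 at 0.54 (0.0806). With the olfactory receptor mean added to the fit Hsp90aa1 and Fkbp4 kept theirs, while Hsp90ab1 was at 0.50 (adjusted p 0.331) and Ahsa1 at 0.31 (0.613). Over 8 mock neuron and 11 mock supporting-cell regions of common depth, a comparison chosen after the data were seen, Hsp90aa1 differed by 1.06 (adjusted p 0.00133) and the other 3 did not pass; these p-values, over regions, are too small as well. The 10 neuron markers were all called higher in neurons and 8 of 9 glia markers lower, and the part of cell content in the differences of the Hsp90 genes was not tested.

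**Figure D2:**
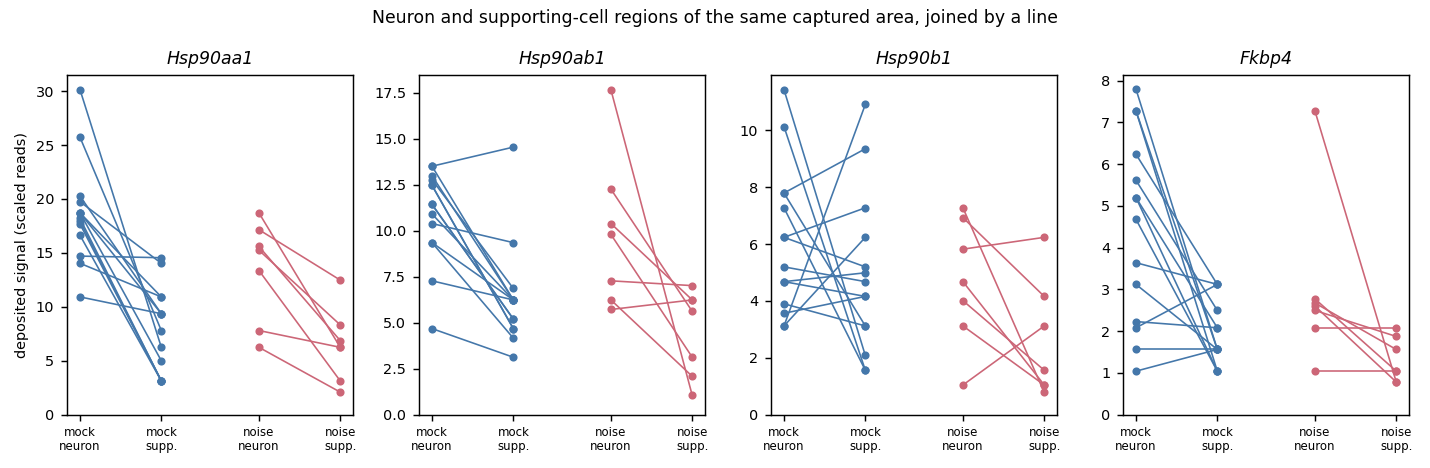
Deposited signal (scaled reads) of Hsp90aa1, Hsp90ab1, Hsp90b1 and Fkbp4 in neuron and supporting-cell regions of the same captured area, joined by a line; 14 mock areas in blue, 7 noise areas in red. Hsp90aa1 is lower in the supporting-cell region in 14 of 14 and 7 of 7 areas, while the Hsp90b1 lines of the mock areas cross, with 8 of 14 lower there.

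After noise, Hsp90aa1 and Hsp90ab1 were again called higher in neuron than in supporting-cell regions, 2 of 7 against 8.28% of all genes tested (6.94% called higher). This comparison shares no region with the mock comparison but shares its noise regions with the comparisons of treatment that follow. Hsp90aa1 differed by 1.05 (SE 0.24, limma adjusted p 0.000555), with 8 of 12 noise neuron regions above the highest supporting-cell region and the neuron region higher in 7 of 7 areas. Hsp90ab1 differed by 0.76 (SE 0.25, adjusted p 0.0338), in 6 of 7 areas. Exact two-sided permutation tests of the single genes gave unadjusted p-values of 0.00119 for Hsp90aa1 and 0.0414 for Hsp90ab1. The SEs from their own spread were 0.28 and 0.33. The limma call of Hsp90ab1 was lost without any 1 of 8 regions. The adjusted p was 0.0598, 0.0625, 0.0624, 0.114 and 0.0771 without noise neuron replicates 3, 4, 5, 7 and 8, and 0.0673, 0.191 and 0.110 without noise supporting-cell replicates 2, 5 and 7. It was also lost in 7 of 15 alternatives, at 0.48 (adjusted p 0.343) with log2 total reads as a covariate, 0.62 (0.189) with the olfactory receptor mean and 0.48 (0.548) over regions of common depth among them. As before, p-values that count regions are too small.

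Hsp90b1 was close to the threshold after noise, at 0.71 (SE 0.25, limma adjusted p 0.0520), and higher in the neuron region in 5 of 7 areas. Exact two-sided permutation tests of the single genes gave unadjusted p-values of 0.0559 for Hsp90b1 and 0.0173 for Fkbp4. With 1 region left out the limma adjusted p of Hsp90b1 ran from 0.0133 to 0.161. It passed in 9 of 50 such fits, without noise neuron replicates 2, 5, 9 and 10 (0.0189, 0.0177, 0.0463 and 0.0424), noise supporting-cell replicates 1, 3 and 6 (0.0433, 0.0260 and 0.0133), mock neuron replicate 4 (0.0487) and mock supporting-cell replicate 7 (0.0497). Among 15 alternatives it passed in 3, with adjusted p from 0.0321 to 0.290. Fkbp4 differed by 0.54 (adjusted p 0.161), with the neuron region higher in 5 areas and equal in 2. Stip1 was at 0.31 (adjusted p 0.479), Ahsa1 at 0.17 (0.781) and Cacybp at -0.30 (0.5005), all over regions and thus too small as p-values.

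The question the design poses is whether noise changed expression in neurons. In noise neuron regions all 7 genes had a point estimate below that in mock neurons, and 0 of 7 passed the test, where 0.662% of all genes tested were called (31 genes). Without a block the median difference of the 7 was -0.33, against 0.02 over all genes and -0.19 over the 974 genes named from A to K. Leaving out Stip1, at -0.01, the estimates ran from -0.30 to -0.49. Stip1 was above 0 with quantile normalization, at 0.03, and in 5 other settings.

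Hsp90ab1 had the largest difference, -0.49 (SE 0.21, limma adjusted p 0.278, 95% interval -0.91 to -0.07), and 10 of 12 noise regions lay below the mock mean. Hsp90aa1 was at -0.39 (SE 0.20, adjusted p 0.376, 95% interval -0.79 to 0.00), also with 10 of 12 noise regions below the mock mean, 2 below the lowest mock region and 3 mock regions above the highest noise region. Permutation tests of the single genes, each test with 2 sides, gave unadjusted p-values of 0.015 for Hsp90aa1 and 0.032 for Hsp90ab1, and 0.112 to 0.983 for the other 5. Fkbp4 was at -0.39 (adjusted p 0.371), with 11 of 12 noise regions below the mock mean. Hsp90b1 and Ahsa1 were each at -0.33 (adjusted p 0.495 and 0.476) and Cacybp at -0.30 (0.482). Counting regions in place of animals makes these p-values too small.

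Tests on the reads recovered from the signal gave calls that limma did not. Hsp90aa1 was lower after noise by edgeR's quasi-likelihood test (-0.47, adjusted p 0.0445) and by DESeq2 (-0.44, adjusted p 0.0370), and Fkbp4 by edgeR alone (-0.79, adjusted p 0.0174). Of the 31 genes called by limma over all genes tested, 21 were lower after noise. With edgeR 183 of all genes were called, 158 of them lower, and with DESeq2 133, 121 of them lower. Both tests count regions too, so their p-values are too small. In the same comparison all 10 neuron markers were lower after noise by point estimate, 1 of them called (Nefh, -0.68, limma adjusted p 0.0224), with a median of -0.36. The olfactory receptor mean was 1.41 in mock and 1.60 in noise neurons, and with it as a covariate the median of the 7 genes was -0.25 and that of all genes -0.08. The part of neuron content in these differences was not tested.

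In supporting cells 0 of 7 genes passed, against 0.363% of all genes tested (17 genes). Hsp90b1 had the largest difference, -0.80 (SE 0.25, limma adjusted p 0.117, 95% interval -1.28 to -0.32). Of 8 noise regions 7 lay below the mock mean and 3 below the lowest mock region, and 3 mock regions lay above the highest noise region. An exact two-sided permutation test of this gene over 319770 splits gave an unadjusted p of 0.0195. Noise supporting-cell replicate 6 held the highest value, 6.24, and without it the difference was -0.98 (adjusted p 0.0391). Over regions of common depth, chosen after the data were seen, it was -1.27 (adjusted p 0.00787). It was not called in the other 13 of 14 alternatives, where the adjusted p ran up to 0.481 and the difference was as small as -0.25, nor without any of the other 49 regions (adjusted p up to 0.293). The p-values treat regions as independent and are too small.

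The cytosolic genes had smaller differences than Hsp90b1 in supporting cells. Hsp90ab1 was at -0.48 (SE 0.25, limma adjusted p 0.505), with 7 of 8 noise regions below the mock mean, and Hsp90aa1 at -0.17 (SE 0.24, adjusted p 0.851, 95% interval -0.63 to 0.29). Fkbp4 was at -0.26, Stip1 at -0.16, Ahsa1 at 0.11 and Cacybp at 0.23, with adjusted p from 0.769 to 0.911. The median of the 7 was -0.17, against -0.03 over all genes and -0.17 over genes named from A to K. All 9 glia markers were lower after noise in these regions, 4 of them called, with a median of -0.87, and the part of glia content in the Hsp90b1 difference was not tested.

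Whether noise acted differently in the region types was tested as the difference of both noise effects, neurons minus supporting cells. No gene was called in the limma fit (0% of 4686, with 287 at an unadjusted p under 0.05), nor by edgeR or DESeq2, so 0 of 7 members passed. With a pseudocount of 10, and with quantile normalization, 1 gene was called, which was none of the 7. Cacybp was at -0.53 (SE 0.29, adjusted p 0.809), Hsp90b1 at 0.47 (SE 0.32, adjusted p 0.852, 95% interval -0.16 to 1.10) and Ahsa1 at -0.44 (SE 0.31, adjusted p 0.855). Hsp90ab1 was at -0.0043 (SE 0.32), with an interval of -0.63 to 0.62, too wide to show that the effects were alike. Tested over regions, these p-values are again too small.

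**Figure D3:**
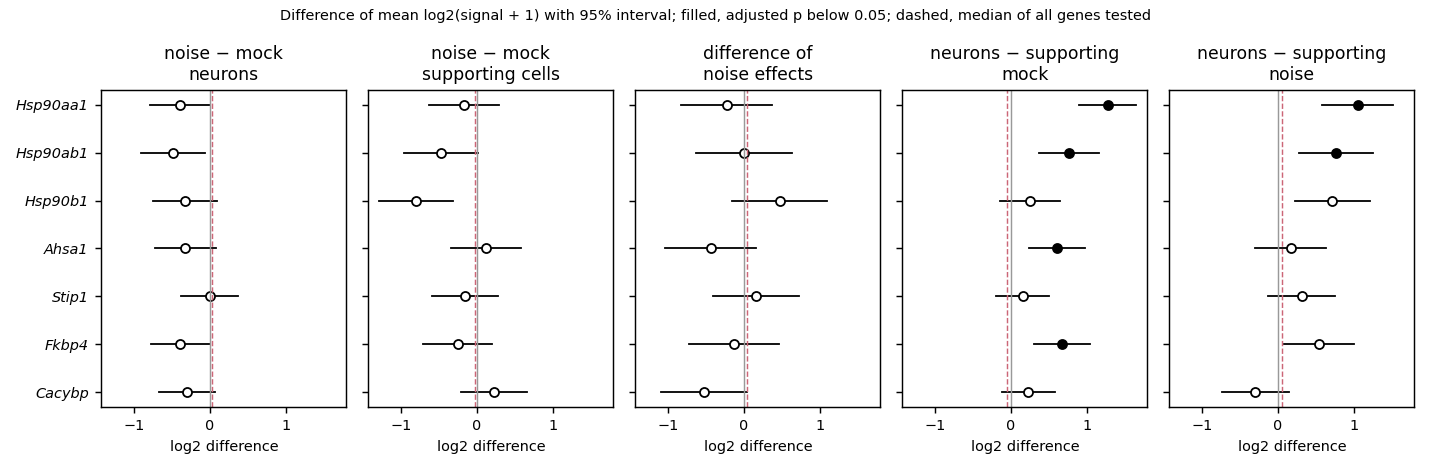
Differences of mean log2(signal + 1) for the 7 genes in 5 comparisons, 1 panel each, with 95% intervals; filled points passed an adjusted p of 0.05 (limma) and the dashed line is the median of all genes tested. The 4 filled points of the mock region-type panel run from 0.60 (Ahsa1) to 1.27 (Hsp90aa1), in the panel of region types after noise Hsp90aa1 and Hsp90ab1 are filled, and in both noise-against-mock panels and their difference no point is.

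The balance of the inducible and the constitutive cytosolic gene was followed as the ratio of Hsp90aa1 to Hsp90ab1 reads within a region, which no scaling between regions can change. Its size depends on the probes of both genes, so only groups are compared. The mean log2 ratio was 0.75 ± 0.48 (SD, n = 16) in mock neurons and 0.90 ± 0.81 (n = 12) in noise neurons. In supporting cells, where reads were few, it was 0.20 ± 1.06 after mock exposure (n = 14) and 0.62 ± 1.24 after noise (n = 8). Noise against mock differed by 0.15 in neurons (permutation p 0.539) and 0.43 in supporting cells (exact permutation p 0.414). Neurons against supporting cells differed by 0.55 after mock exposure (permutation p 0.0758) and 0.28 after noise (exact permutation p 0.583). The values of noise supporting cells rest on replicate 5, whose log2 ratio was 3.58 where the group median was 0.14: without it noise and mock supporting cells differed by 0.0043, and neurons and supporting cells after noise by 0.70 (adjusted permutation p 0.0938). Adjusted over these 4 comparisons the p-values were 0.303 to 0.583, and none passed. With p-values over regions too small, a change in the ratio was not detectable at this depth.

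**Figure D4:**
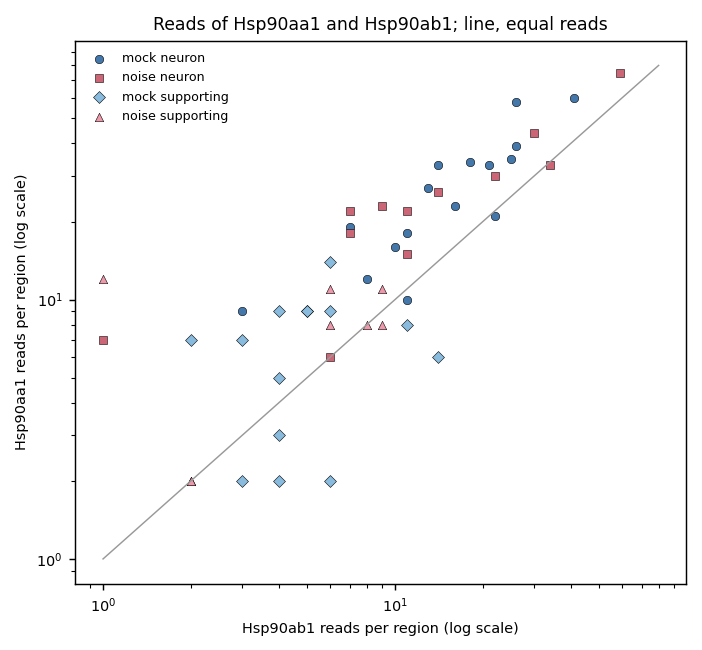
Recovered reads of Hsp90aa1 against Hsp90ab1 in each of 50 regions (both axes on a log scale; some points coincide), by group, with a line of equal reads as a guide. Neuron regions reach more reads of both genes, and the point of noise supporting-cell replicate 5 stands apart with 12 Hsp90aa1 reads and 1 Hsp90ab1 read.

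Within groups the 7 genes were only weakly correlated across regions, and at so few reads per region this does not show that they varied independently. With the differences between groups left in, the pairs had correlations from -0.14 (Ahsa1 with Stip1) to 0.53 (Hsp90aa1 with Fkbp4). Their median was then 0.22, with 18 of 21 above 0. After group means were subtracted, the 21 pairs had Pearson correlations from -0.24 (Ahsa1 with Stip1) to 0.40 (Hsp90b1 with Ahsa1) over 50 regions, with a median of 0.09 and 16 pairs above 0. All share library and depth. The correlation with log2 total reads was 0.43 for Hsp90ab1 and 0.04 to 0.19 for the other 6. Among 4685 other genes, those most like Hsp90aa1 by the same measure were Fth1 (0.57), Spp1 (0.55) and Rpl13a (0.53). Those most like Hsp90ab1 were Rabep1 (0.63), Jund (0.62) and Ndufs3 (0.59), and those most like Hsp90b1 were Nudt3 (0.49), Eif1 (0.48) and Abca2 (0.47). For each of these Hsp90 genes they are the highest of 4685 correlations, and none was tested against chance.

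The wider Hsp90 machinery was read from lists. Of 40 other co-chaperones 21 were tested, and 0 passed in either noise comparison, with medians of 0.10 in neurons and 0.06 in supporting cells. Of all genes tested 0.662% and 0.363% were called in these comparisons. Between region types after mock exposure 1 of 21 was called, against 20.0% of all genes tested: Nudcd2, a relative of the nuclear distribution protein NudC, had a difference of -0.57 (limma adjusted p 0.0245). Their median in that comparison was -0.04, where the 7 genes had 0.60. The co-chaperones with the highest mean signal, Ruvbl2, an AAA+ ATPase of the R2TP complex, and Sgtb, a tetratricopeptide adaptor, were at 0.50 (adjusted p 0.265) and 0.24 (0.649) after noise in neurons. Regions were the unit of these tests, so their p-values are too small.

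Of 28 heat-shock factors and their chaperone targets 12 were tested. In neurons 1 of 12 was called after noise, against 0.662% of all genes tested. This was Ubb, a polyubiquitin gene, which was lower (-0.57, SE 0.14, limma adjusted p 0.0224). A point estimate below 0 was found for 10 of 12, with a median of -0.17. The genes named from A to K, which include all of the list tested but Ubb, had -0.19. In supporting cells 0 of 12 passed, against 0.363% of all genes tested. There 11 of 12 were below 0, with a median of -0.24, against -0.17 over genes named from A to K. Hspa8, the constitutive Hsp70 that hands clients to Hsp90 through Stip1, was higher in neurons than in supporting cells by 1.31 after mock exposure (adjusted p 3.41e-11) and 1.497 after noise (adjusted p 1.27e-08). After mock exposure Hspa4l, Hsph1, Hspa9 and Ubb were also higher in neurons. The lens and glial small heat-shock protein Cryab was lower there (-1.34, adjusted p 1.48e-09), as was Hsf1 itself (-0.59, adjusted p 0.00696). After noise Cryab was again lower in neurons (-0.73, adjusted p 0.0463). Of the 12 genes, 5 were called higher in neurons and 2 lower after mock exposure, where 20.0% of all genes tested were called. After noise 1 was called higher and 1 lower, against 8.28% of all genes tested. These tests count regions, which makes the p-values too small.

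Of 29 endoplasmic reticulum chaperones, the group Hsp90b1 belongs to, 14 were tested and 0 passed in any of the 5 limma comparisons. Of all genes tested, 20.0% were called between region types after mock exposure and 8.28% after noise. The shares were 0.662% and 0.363% for noise against mock in neurons and supporting cells, and 0% for the difference of effects. After noise in supporting cells the median of the 14 chaperones was 0.11, with 8 above 0 and 6 below, where Hsp90b1 itself was at -0.80. Canx and Calr, the lectin chaperones with the highest mean signal of the list, were at -0.74 (adjusted p 0.161) and 0.72 (adjusted p 0.159) there. Of 39 Hsp90 clients 15 were tested, and 0 passed in either noise comparison. After mock exposure the autophagy kinase Ulk1, the potassium channel Kcnh2 and the kinase Akt1 were higher in neurons by 0.71, 0.64 and 0.56, and the kinase Map3k11 was lower (-0.51). These are 3 called higher and 1 lower of 15, where 20.0% of all genes tested were called. After noise Nos1, Nr3c2 and Ulk1 were higher in neurons by 1.05, 0.86 and 0.74, 3 of 15 called, against 8.28% of all genes tested. Here again the p-values, taken over regions, are too small.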

How the data were processed

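Captured regions of mouse cochlea were grouped by the titles of their labels. Per the labels, the extract text names a bulk RNA library kit, and the submitters' processing notes name DRAGEN and the builds mm10 and GRCm38; the steps between are not given in the sources used here. The authors deposited a signal per gene and region with the same upper quartile in each. Within a region values were whole multiples of the lowest value (99.99% within 0.01 of a whole number), so reads were recovered by division; 1 gene was not whole. A total of 66 entries, none in the 7 genes and 60 in noise supporting cells, held no number and were treated as missing. No pair of regions held identical values. Noise neuron replicate 6 was left out.

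Genes with a mean signal at or above the 0.25 quantile (1.85) were tested, 4686 of 6248, all 7 among them. limma 3.58.1 in R 4.3.3 was fitted to log2(signal + 1) with 4 group means and a trend. Captured area was a random block (consensus correlation 0.0389) in the comparisons of region type and the difference of effects. In this fit limma took the spread behind each SE from genes of similar mean, and a gene's own spread had next to no weight. Permutation tests of single genes, with their own spread, therefore stand beside it. edgeR 4.0.16 and DESeq2 1.42.0 on recovered reads, other pseudocounts (0.5 and 10), filters, scalings, blocks and covariates, and leaving out each region were alternatives. The fit was tested on simulated data with known changes, placed in genes with reads at or above the median. Every gene was given the same dispersion and regions were drawn as independent, so the shares recovered may be higher than in these data. For noise against mock in neurons 52.0% of 98 changes of 1 in log2 were recovered. Their estimates had a median of 0.67 of the true change. Of changes of 2 in log2, 96.9% were recovered. Smaller changes were not simulated, so the lack of calls among the 7 genes after noise does not show that they were unchanged. The 7 genes and the lists were chosen with earlier results of these data known. Named were the 7 genes, the 3 genes most correlated with each Hsp90 gene, and from each list up to 4 genes past the threshold or else the 2 of highest mean signal. Hsf1 and Hspa9, outside this rule, were named after their values were seen. Replicate numbers did not pair regions: same-numbered regions of noise and mock neurons had a median correlation of -0.01. The labels do not say which regions share an animal, so p-values measure the spread between regions.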

Additional observations from a re-analysis of the deposited data

Results flagged for a closer look

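The log2 ratio of Hsp90aa1 to Hsp90ab1 reads in noise supporting-cell replicate 5 was 3.58, from 12 reads against 1, and stood far from the other 7 regions of its group by Dixon's criterion. Of 8 quantities tested in that group 1 met it, and chance reaches it in about 1 in 20.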

How the results depend on the processing

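Regions are shallow and share animals, which limits every comparison. Of 501 values of single genes under the alternatives 456 kept their direction and side of the threshold, 19 lost a call, 7 gained one and 19 changed sign, none of the latter with a call. Of 1750 values with 1 region left out, 1695 were kept, 8 lost a call, 10 gained one and 37 changed sign, none with a call. In the counts that follow, brackets give the calls over all genes tested in the same setting. The number of the 7 genes called in neurons after noise was 0 (31), and 2 with edgeR (183) and 1 with DESeq2 (133). In supporting cells it was 0 (17), and 1 over regions of common depth (22), and 0 to 1 with 1 region left out. Between region types after mock exposure it was 4 (939). It was 3 with edgeR (679), where Ahsa1 was lost (adjusted p 0.0618), and with quantile normalization (857), where Hsp90ab1 was lost (0.103). It was 2 with DESeq2 (518), where Ahsa1 and Fkbp4 were lost (0.204 and 0.0583), and with an olfactory receptor covariate (412). It was 1 with a covariate of log2 total reads (604) and over regions of common depth (455). Between region types after noise it was 2 (388). It was 1 with a pseudocount of 10 (310), DESeq2 (218), quantile normalization (323), or the olfactory receptor (282) or read covariate (255). It was also 1 with noise neuron replicate 6 kept (347) or over regions of common depth (146). With Hsp90b1 added it was 3 with a pseudocount of 0.5 (393), the median filter (382) or the negative probe subtracted (418). It was 1 to 3 with 1 region left out. With replicate number as a block (replicate block) it was 0, 0, 0, 4 and 2 in the 5 comparisons, as without; the numbers did not pair regions.

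Stip1 in neurons after noise was at 0.0082 with a pseudocount of 10, 0.034 with quantile normalization, 0.058 with the negative probe subtracted, 0.092 with the olfactory receptor covariate, 0.030 with replicate 6 kept and 0.053 with the replicate block. Hsp90ab1 in the difference of effects was at 0.020 with a pseudocount of 0.5, 0.071 with edgeR, 0.065 with DESeq2, 0.14 with quantile normalization, 0.021 with the negative probe subtracted, 0.12 and 0.044 with the olfactory receptor and read covariates, 0.092 with the replicate block and 0.33 with area as a fixed block. Over regions of common depth Fkbp4 in the difference of effects was at 0.32, and between region types after mock exposure Hsp90b1 was at -0.093 and Stip1 at -0.15. Ahsa1 between region types after noise was at -0.0046 with DESeq2. The Hsp90aa1 to Hsp90ab1 ratio after noise in supporting cells was at -0.022 over regions with at least 5 reads of both. The causes were not tested. With 1 region left out, Hsp90ab1 in the difference of effects ran from -0.20 to 0.15, Stip1 in neurons after noise from -0.10 to 0.085, Hsp90aa1 in supporting cells after noise from -0.30 to 0.0028, and the ratio in neurons after noise from -0.019 to 0.24.

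Counts over all genes moved as well. In neurons after noise 31 genes became 47 with a pseudocount of 10, 183 with edgeR, 133 with DESeq2, 6 with quantile normalization, 7 with the negative probe subtracted, 3 with the olfactory receptor covariate and 19 with the replicate block. In supporting cells 17 became 26 with a pseudocount of 10, 11 without a filter, 8 with edgeR, 11 with DESeq2 and 53 with quantile normalization. In the difference of effects 0 became 1 with a pseudocount of 10 and 1 with quantile normalization. Between region types after mock exposure 939 became 518 with DESeq2, 412 and 604 with the olfactory receptor and read covariates and 455 over regions of common depth; after noise 388 became 218, 255 with reads and 146 over regions of common depth. The negative probe subtracted moved the median of all genes between mock region types from -0.05 to 0.23, and that of the 7 genes to 1.00.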
